A study of Mus musculus with 12 samples.

Results

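The genes described are 43 interferon-stimulated effectors, 43 of the 52636 gene rows measured in cultured mouse lung PDGFR-β+ cells and airway smooth muscle cells (SMCs). They were chosen from earlier results on these same libraries, by their siKlf4 against Scr values, as the effectors that respond to interferon, so their differences between siKlf4 and Scr are a description: limma calls of members are counted beside the share over all genes, and nothing is read from them. Poly-A RNA was sequenced from 12 libraries in 4 groups of 3, and each library is given in TPM, a unit of transcript abundance that is divided by transcript length and sums to 1000000 in every library. Both cell types are C57BL/6. The PDGFR-β+ cells came from lungs of mice 12 weeks old, and carry the labels WT with a scrambled RNA (Scr) or Klf4 KD with an siRNA to Klf4 (siKlf4). They were sorted in the study by a Pdgfrb-driven, tamoxifen-inducible reporter and grown in culture, so that they are a mixed population of mural and other mesenchymal cells, and how many animals they came from is not given in the sources used here. The SMCs are a commercial culture, titled lung airway SMCs but with trachea as their tissue, under the same pair of labels. Both groups of each cell type were transfected, and Klf4 is the only gene targeted. A p-value from these libraries measures the spread between 3 samples that the study describes as independent experiments.

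Interferons are secreted proteins that bind receptors on the same or neighbouring cells. The receptors act through JAK kinases on STAT2, which joins IRF9 in a complex that binds the interferon-stimulated response element (ISRE) in promoters, and the genes so switched on block viral entry, translation, replication and release or signal to leukocytes. Mesenchymal cells of the lung keep a low tonic level of many of these genes, and IRF7, itself a target, extends the response. KLF4 is a zinc finger transcription factor known for its part in the phenotype of smooth muscle cells and pericytes.

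The promoters of the members are shown first because the ISRE, which the complex of STAT2 and IRF9 binds, lies in promoters. RefSeq promoter windows of mouse build GRCm38.p6, the assembly that mm10 names, were matched by symbol for 33 of the 43 members; each window holds 250 bases before the transcription start and 50 after it. Mx1, Mx2, Ccl5, Parp9, Parp14, Usp18, Ifi27, Rtp4, Tor3a and Zbp1 had no entry. The ISRE core, searched as GAAANNGAAA on both strands, was present in 13 of 33 members (39.4%) and in 3.99% of the 27025 genes with a window. This exact pattern passes over variants of the core, and in Ifitm3 and Trim21 the only matches lay after the start. The gamma-activated sequence TTCNNNGAA was present in 7 of 33 members (21.2%), against 9.55% of all genes. A kappa B letter pattern, GGGANNTTCC, was present in 4 (12.1%), against 1.63%, and a KLF pattern, GGGTGNGG, in 7 (21.2%), against 18.4%. Matches are given as letters found in a window, and nothing was measured on the binding of any factor.

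The sequences printed are the 220 bases before the start of Isg15, the holder of the ISRE core with the largest log2 fold change in PDGFR-β+ cells, of its neighbours in the list Ifit1, Ifit3 and Ifit3b, which form a cluster on chromosome 19, and of Rsad2 and Cxcl10, an enzyme and a chemokine. Capitals mark the ISRE core on either strand, and each line runs 5′ to 3′ towards the start of the gene.
Isg15 (chr4:156200819-156201038, minus strand): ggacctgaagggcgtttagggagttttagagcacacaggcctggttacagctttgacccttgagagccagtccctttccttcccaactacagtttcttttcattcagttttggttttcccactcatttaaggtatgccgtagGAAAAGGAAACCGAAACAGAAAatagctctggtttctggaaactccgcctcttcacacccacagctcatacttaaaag
Ifit1 (chr19:34640669-34640888, plus strand): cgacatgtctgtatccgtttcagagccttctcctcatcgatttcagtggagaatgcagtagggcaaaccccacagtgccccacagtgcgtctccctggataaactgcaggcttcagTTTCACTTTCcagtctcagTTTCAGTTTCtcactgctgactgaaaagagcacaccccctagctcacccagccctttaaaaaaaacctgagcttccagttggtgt
Ifit3 (chr19:34583309-34583528, plus strand): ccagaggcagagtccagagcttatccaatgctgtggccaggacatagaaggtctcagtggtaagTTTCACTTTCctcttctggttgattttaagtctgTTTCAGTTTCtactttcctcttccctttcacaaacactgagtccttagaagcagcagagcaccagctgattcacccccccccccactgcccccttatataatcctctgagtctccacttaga
Ifit3b (chr19:34607737-34607956, plus strand): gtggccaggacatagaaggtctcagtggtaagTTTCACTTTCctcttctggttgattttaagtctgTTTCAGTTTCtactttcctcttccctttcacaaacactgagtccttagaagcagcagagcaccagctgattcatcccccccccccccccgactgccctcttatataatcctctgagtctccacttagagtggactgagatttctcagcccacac
Rsad2 (chr12:26456453-26456672, minus strand): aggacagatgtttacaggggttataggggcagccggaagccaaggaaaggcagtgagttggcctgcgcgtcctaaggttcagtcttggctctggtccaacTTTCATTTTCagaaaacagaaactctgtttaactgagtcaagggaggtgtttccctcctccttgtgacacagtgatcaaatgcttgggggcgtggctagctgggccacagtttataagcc
Cxcl10 (chr5:92348890-92349109, minus strand): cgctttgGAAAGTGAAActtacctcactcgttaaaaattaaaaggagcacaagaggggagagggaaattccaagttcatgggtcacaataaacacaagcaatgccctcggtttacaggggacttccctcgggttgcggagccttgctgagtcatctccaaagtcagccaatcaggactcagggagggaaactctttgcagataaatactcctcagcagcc
Isg15 held 3 overlapping matches, the first starting 78 bases before the gene. In Ifit3 and Ifit3b the pair of cores lay 34 bases apart in both windows, and the longest run the windows shared was 169 bases. The 13 members with the core had a median log2 fold change of 3.68 in PDGFR-β+ cells and 1.54 in SMCs, the 20 with a window but no core had 2.47 and, over the 19 of them tested, 0.69, and the 10 with no entry had 3.59 and, over the 9 tested, 1.04. The ranges overlapped in both cell types, and nothing is read from these medians, since the same contrasts chose the members.

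Klf4 was at 144, 146 and 134 TPM in the Scr and 12.3, 13.8 and 12.8 TPM in the siKlf4 libraries of PDGFR-β+ cells, and at 89.6, 96.3 and 95.0 TPM and 26.5, 16.3 and 18.8 TPM in those of SMCs, so that the targeted gene was lower in every library labelled siKlf4. Where a pair of value sets is given for a cell type, the Scr libraries come first and the siKlf4 libraries second. Here and below the values of PDGFR-β+ cells follow replicates 1, 2 and 3, while those of SMCs start with the library whose column carries no replicate number and go on with replicates 2 and 3. In the Scr PDGFR-β+ cells replicate 3 had the highest value of its group for 39 of the 43 members and replicate 2 the lowest for 34, and in the Scr SMCs the library with no number had the lowest for 32. As to the labels, the leukocyte and epithelial genes Ptprc, Adgre1, Tyrobp and Epcam were at or near 0 TPM in all 12 libraries, although Cd14 was at 42.3, 40.8 and 39.8 TPM in Scr SMCs and Lyz2 at 20.3, 17.3 and 19.4 TPM in Scr PDGFR-β+ cells. The 10 leukocyte markers summed to 36.3 to 37.7 TPM in Scr and 29.5 to 33.9 TPM in siKlf4 PDGFR-β+ cells, and to 46.1 to 50.5 TPM and 25.2 to 29.9 TPM in SMCs, lower with siKlf4 in both. For the 7 endothelial markers the sums were 15.3 to 18.4 TPM and 14.1 to 16.2 TPM in PDGFR-β+ cells. In SMCs they were 1.34 to 2.65 TPM and 3.54 to 4.02 TPM. The 8 epithelial markers summed to 1.19 TPM or less in every library. Acta2, which marks smooth muscle, was higher in Scr PDGFR-β+ cells (4594, 4545 and 3969 TPM) than in Scr SMCs (1031, 1522 and 1567 TPM), Myocd was at or near 0 TPM in both, and the SMCs held 511, 384 and 357 TPM of Pdgfra. Acta2 was at 3072, 2455 and 2691 TPM in the siKlf4 SMCs. The 7 smooth muscle markers summed to 5495 to 6338 TPM in Scr and 4629.6 to 4930.5 TPM in siKlf4 PDGFR-β+ cells, and to 1435 to 2219.6 TPM and 3305 to 4067 TPM in SMCs, so that they were lower in the cells labelled SMC under both treatments. In bulk RNA a change in the number of cells that express a gene and a change in RNA per cell cannot be told apart.

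In PDGFR-β+ cells 42 of the 43 members were higher in every siKlf4 library than in any Scr library, and 1, Ifi27, was lower in every one. Over the 13694 genes tested, 33.9% were higher and 19.8% lower without overlap. A gene was tested where its TPM, averaged across all 6 libraries of that cell type, reached 1, which held for all 43 members, but Mx1, Ddx60, Cmpk2, Slfn5 and Epsti1 passed only through the siKlf4 group. The members' log2 fold changes, taken on log2(TPM + 1), ran from −0.88 to 5.44 with a median of 2.83, against a median of 0.10 over all genes tested. The median was 2.95 without Scr replicate 3 and 2.66 without Scr replicate 2. On the ratio of mean TPM, 21 members were at least 10-fold and 41 at least 2-fold higher with siKlf4. Together they summed to 1666 to 2208 TPM in the Scr and 10301 to 10579 TPM in the siKlf4 libraries.

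In SMCs the same comparison was smaller. There 34 members were higher in every siKlf4 library, 4 were lower in every one and 5 overlapped, while 25.6% of the 13709 genes tested were higher and 21.5% lower without overlap. Mx1 and Epsti1 were too low to be tested, and the other 41 had log2 fold changes from −0.77 to 2.44 with a median of 0.87, against 0.02 over all genes tested. Among the 41, Cxcl10 had a Scr mean of 0.987 TPM and passed the filter only through the siKlf4 group. The median was 0.80 without the Scr library that carries no number. None reached a 10-fold ratio of mean TPM and 19 reached 2-fold. The summed level was 3628 to 4210 TPM with Scr and 5567 to 5983 TPM with siKlf4. By limma at a Benjamini-Hochberg adjusted threshold of 0.05, 42 members were called higher and 1 lower in PDGFR-β+ cells, beside 25.3% and 15.3% of all genes tested, and 31 higher, 3 lower and 7 neither in SMCs, beside 15.6% and 12.9%; since these contrasts chose the members, nothing is read from the counts.

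**Figure D1:**
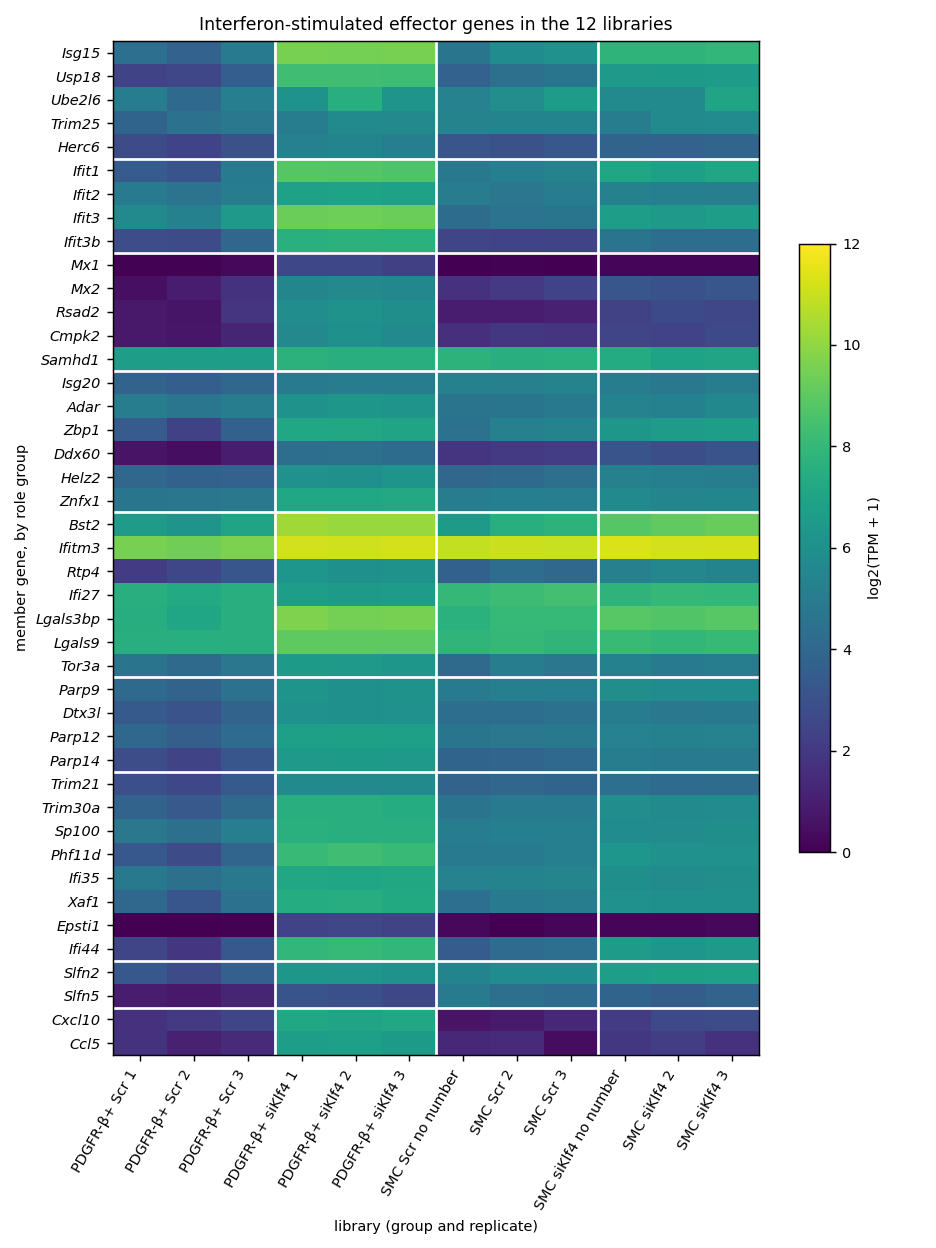
Level of each of the 43 members (rows, by role group) in each of the 12 libraries (columns, by group and replicate), as log2(TPM + 1) on the colour scale. The siKlf4 PDGFR-β+ columns are the brightest for most rows, Ifi27 is the row that is dimmer there, and Mx1 and Epsti1 stay near 0 in all SMC columns.

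The ISG15 conjugation genes attach the ubiquitin-like protein ISG15 to other proteins or remove it. Isg15 itself (chr4:156199424-156200818, build mm10) stood at 19.8, 12.7 and 29.3 TPM in the Scr and 736, 728 and 739 TPM in the siKlf4 PDGFR-β+ libraries, and at 24.5, 55.8 and 66.7 TPM and 224, 219.5 and 247 TPM in SMCs. Every siKlf4 library was far above every Scr library in both cell types, and the Scr SMC library with no number was well below the other two. Its log2 fold change was 5.17 ± 0.25 (SE, 3 against 3 libraries) in PDGFR-β+ cells and 2.32 ± 0.33 in SMCs, and 1.90 in SMCs when that library was left out.

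Usp18, the protease that removes ISG15 and also restrains the type I interferon receptor, had the largest log2 fold change of the 43 in PDGFR-β+ cells. It was at 4.51, 4.84 and 11.1 TPM under Scr and 319, 321 and 306 TPM after siKlf4 there, a log2 fold change of 5.44 ± 0.27. SMCs held 12.6, 20.3 and 24.8 TPM and 89.1, 92.4 and 95.0 TPM, or 2.26 ± 0.22. The Scr SMC libraries all lay above the Scr PDGFR-β+ libraries, and the siKlf4 SMC libraries all lay below the siKlf4 PDGFR-β+ libraries. The lead of Usp18 holds on log2(TPM + 1). By ratio of mean TPM in PDGFR-β+ cells it stood at 46.3, below Epsti1 (237), Cmpk2 (59.4), Ccl5 (56.3), Mx1 (48.8) and Rsad2 (48.5). Herc6, the main ISG15 ligase of the mouse, had log2 fold changes of 2.54 ± 0.15 and 0.70 ± 0.12; 10.3% of the 100-base windows of its transcripts are shared with the overlapping gene model Gm45193.

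The remaining pair of conjugation genes varied among libraries. Trim25, an E3 ligase for ISG15 and for the RNA sensor RIG-I, had the smallest value of the group, at 13.5, 21.7 and 26.7 TPM under Scr and 32.2, 53.0 and 49.1 TPM after siKlf4 in PDGFR-β+ cells, or 1.10 ± 0.27. In SMCs it was at 40.5, 41.0 and 41.7 TPM and 31.5, 51.7 and 53.5 TPM, where the siKlf4 library with no number lay below all Scr libraries and the other two above them. Ube2l6, the E2 enzyme for ISG15, was at 32.6, 15.9 and 35.5 TPM and 71.4, 188 and 73.8 TPM in PDGFR-β+ cells, where siKlf4 replicate 2 was well above the rest of its group. In SMCs it was at 39.3, 57.3 and 93.8 TPM and 50.6, 50.4 and 128 TPM, with replicate 3 highest in both groups. Leaving out single SMC libraries moved its log2 fold change there between -0.24 and 0.53, and that of Trim25 between -0.02 and 0.35, so neither has a direction in SMCs.

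The IFIT proteins bind viral RNA and hold back its translation. Ifit1 had the largest change of the family in PDGFR-β+ cells, from 10.3, 7.59 and 29.0 TPM with Scr to 449.6, 438 and 414 TPM with siKlf4, or 4.93 ± 0.41. Scr replicate 3 was well above the other two, and all siKlf4 libraries were far above it. In SMCs Ifit1 was at 27.7, 35.4 and 40.2 TPM and 131, 111 and 130.2 TPM, or 1.83 ± 0.14. Ifit2 had the smallest change, at 30.7, 22.4 and 31.8 TPM and 114, 122 and 115 TPM in PDGFR-β+ cells and 32.0, 26.3 and 31.7 TPM and 38.2, 35.6 and 34.4 TPM in SMCs. Its groups did not overlap in SMCs, although the log2 fold change there was only 0.26 ± 0.099, and 0.17 without Scr replicate 2.

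Ifit3 and Ifit3b lie next to each other on chromosome 19, and 31.7% of the 100-base windows of Ifit3 transcripts and 27.4% of those of Ifit3b are identical to the other gene, so the division of reads between them is uncertain. Ifit3 was at 50.2, 37.4 and 84.8 TPM and 636, 662 and 639.6 TPM in PDGFR-β+ cells and at 18.0, 22.6 and 24.0 TPM and 101, 85.6 and 103 TPM in SMCs. Ifit3b was at 6.22, 5.97 and 14.5 TPM and 196, 206 and 202 TPM in PDGFR-β+ cells and at 4.69, 4.28 and 4.48 TPM and 23.2, 19.5 and 19.1 TPM in SMCs. Both were lower in Scr SMCs than in Scr PDGFR-β+ cells, without overlap, which was otherwise seen only for Cxcl10 among the members. Their log2 fold changes in SMCs, 2.12 ± 0.13 and 1.97 ± 0.11, were among the 5 largest of the 43.

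**Figure D2:**
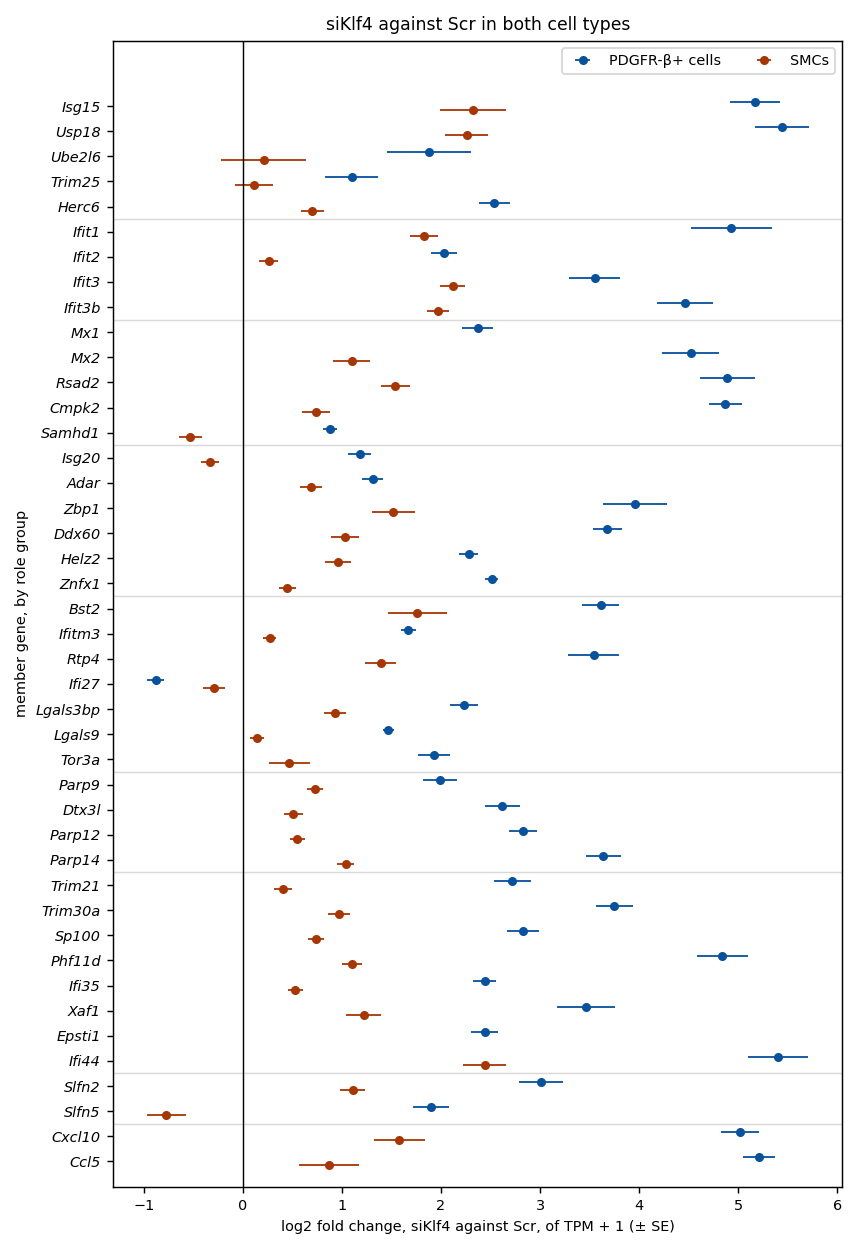
Log2 fold change of siKlf4 against Scr on log2(TPM + 1), with its SE, for each member in PDGFR-β+ cells (blue) and SMCs (brown); grey lines part the role groups and the black line marks no difference. Every blue point but that of Ifi27 lies to the right of the brown point of its gene, and the brown points of Samhd1, Isg20, Slfn5 and Ifi27 lie left of 0.

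Mx1 and Mx2 belong to a family of dynamin-like GTPases, some of which trap viral particles. Only RNA was measured here, and whether a working protein is made was not tested. Mx1 was at 0.0464, 0.0574 and 0.184 TPM in Scr and 5.01, 5.16 and 3.87 TPM in siKlf4 PDGFR-β+ cells, and at 0.032, 0.0644 and 0 TPM and 0.107, 0.169 and 0.174 TPM in SMCs, so that only the siKlf4 PDGFR-β+ group passed 1 TPM. Mx2, which the GENCODE annotation lists as a polymorphic pseudogene, was far higher, with 44.4, 49.2 and 48.2 TPM in siKlf4 PDGFR-β+ cells and 8.2, 7.21 and 8.3 TPM in siKlf4 SMCs, from 0.412, 0.923 and 2.39 TPM and 2.29, 3.02 and 4.37 TPM with Scr. Its log2 fold changes were 4.52 ± 0.29 and 1.10 ± 0.19.

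Rsad2 (viperin) and Cmpk2 are adjacent genes on chromosome 12 whose enzymes together make an antiviral nucleotide. Both had nearly the same log2 fold change in PDGFR-β+ cells, the highest of their group. Rsad2 had 0.743, 0.622 and 2.52 TPM in Scr and 58.5, 68.1 and 62.1 TPM in siKlf4 libraries, or 4.89 ± 0.28 and a ratio of mean TPM of 48.5. Its SMC levels were 0.945, 0.96 and 1.14 TPM and 4.11, 5.53 and 4.97 TPM, or 1.54 ± 0.15, and the Scr levels of the cell types overlapped. Cmpk2 was at 0.739, 0.68 and 1.36 TPM and 49.0, 63.8 and 52.0 TPM in PDGFR-β+ cells, a ratio of mean TPM of 59.4, and at 2.04, 2.82 and 2.44 TPM and 4.62, 4.28 and 5.22 TPM in SMCs, a ratio of 1.94. With log2 fold changes of 4.87 ± 0.16 and 0.74 ± 0.14, it differed most between the cell types in this group, by 4.13 ± 0.22.

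Samhd1, which breaks down deoxynucleotides, had the smallest positive value of the 43 in PDGFR-β+ cells and went the other way in SMCs. It was at 105, 103 and 103 TPM under Scr and 208, 183 and 185 TPM after siKlf4 in PDGFR-β+ cells, or 0.88 ± 0.072. The SMC libraries held 212, 192 and 198 TPM under Scr and 166, 125 and 128 TPM after siKlf4, or -0.53 ± 0.12. The groups did not overlap in either cell type. Leaving out each SMC library in turn kept its log2 fold change between -0.66 and -0.46.

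Of the 6 genes for nucleic acid binding and helicases, Zbp1, a sensor of Z-form nucleic acid that can trigger necroptosis, had the largest log2 fold change in PDGFR-β+ cells. It was at 10.1, 3.92 and 11.9 TPM under Scr and 143, 143 and 127 TPM after siKlf4, or 3.96 ± 0.33, and at 21.7, 36.0 and 39.7 TPM and 80.7, 93.6 and 104 TPM in SMCs, or 1.52 ± 0.22. The SMC Scr libraries all exceeded the PDGFR-β+ Scr libraries. Isg20, a 3′ to 5′ exonuclease, had the smallest change, at 13.3, 11.2 and 15.0 TPM and 29.1, 31.8 and 31.5 TPM in PDGFR-β+ cells, or 1.18 ± 0.11. In SMCs it was lower in every siKlf4 library, at 37.3, 37.0 and 40.7 TPM under Scr and 31.8, 26.9 and 32.1 TPM after siKlf4, or -0.33 ± 0.094. The siKlf4 levels of the cell types overlapped, from a Scr level that was 2.92 times as high in SMCs.

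The helicases Ddx60, Helz2 and Znfx1 and the RNA editing enzyme Adar were higher in every siKlf4 library of both cell types. Their log2 fold changes in PDGFR-β+ cells were 3.68 ± 0.15 for Ddx60, 2.28 ± 0.096 for Helz2, 2.51 ± 0.07 for Znfx1 and 1.31 ± 0.11 for Adar. In SMCs they were 1.03 ± 0.14, 0.96 ± 0.13, 0.45 ± 0.089 and 0.69 ± 0.11 in the same order. Znfx1 had narrow Scr groups, at 24.1, 24.8 and 26.8 TPM in PDGFR-β+ cells and 32.6, 35.1 and 33.6 TPM in SMCs, and Adar the smallest difference between the cell types of the members higher in both without overlap, at 0.61 ± 0.16. Adar overlaps Chrnb2 and Znfx1 overlaps Zfas1 on the opposite strand, and whether the counting used strand is not stated.

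Bst2 (tetherin), which holds budding virus at the cell surface, had the largest log2 fold change of the membrane and secreted proteins. It was at 94.4, 71.9 and 128 TPM in Scr and 1239, 1138 and 1141 TPM in siKlf4 PDGFR-β+ cells, or 3.61 ± 0.18. SMCs had 91.9, 182 and 217 TPM and 456, 534 and 584 TPM, or 1.76 ± 0.30, with the Scr library that carries no number well below the others. Ifitm3, which blocks the fusion of viral envelopes, was the most abundant member in every library. It was at 748, 665 and 781 TPM and 2349.8, 2267 and 2358 TPM in PDGFR-β+ cells, and at 1934, 2069.6 and 2023 TPM and 2559, 2292 and 2402 TPM in SMCs. The siKlf4 groups of the cell types overlapped while the Scr groups did not, and the log2 fold changes were 1.67 ± 0.077 and 0.27 ± 0.069.

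Ifi27, a small hydrophobic interferon-induced protein, was the exception among the 43. It was at 187, 159.8 and 189.8 TPM under Scr and 100.3, 92.3 and 98.0 TPM after siKlf4 in PDGFR-β+ cells, or -0.88 ± 0.086. For SMCs the values were 254, 295 and 339 TPM and 223, 250.2 and 249 TPM, or -0.29 ± 0.11, and -0.19 without Scr replicate 3. It was lower in every siKlf4 library of both cell types, which goes against the name under which the genes were grouped.

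The galectin Lgals9, the secreted glycoprotein Lgals3bp, the torsin Tor3a and the receptor transporter Rtp4 were higher with siKlf4 in PDGFR-β+ cells without overlap, by log2 fold changes of 1.47 ± 0.058, 2.23 ± 0.14, 1.93 ± 0.16 and 3.54 ± 0.26. In SMCs the values were 0.14 ± 0.07, 0.93 ± 0.11, 0.47 ± 0.21 and 1.39 ± 0.15. The groups of Lgals9 and Tor3a overlapped in SMCs, and Tor3a fell to 0.23 without the Scr library that carries no number. Lgals9 had little spread in PDGFR-β+ cells, at 190.2, 183 and 192 TPM under Scr and 519.9, 523 and 524 TPM after siKlf4.

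The PARP genes encode enzymes that add ADP-ribose to proteins, and DTX3L is the ubiquitin ligase partner of PARP9. All 4 were higher in every siKlf4 library of both cell types. Parp14 was at 6.22, 4.48 and 8.41 TPM and 87.0, 92.6 and 86.7 TPM in PDGFR-β+ cells and at 13.8, 14.3 and 16.2 TPM and 32.2, 30.5 and 31.1 TPM in SMCs, the largest change of the group at 3.64 ± 0.18 and 1.04 ± 0.087. Parp9 had the smallest in PDGFR-β+ cells, at 16.4, 12.9 and 22.2 TPM and 73.5, 64.1 and 71.4 TPM, or 1.99 ± 0.17, and was at 31.2, 35.7 and 35.6 TPM and 60.1, 55.7 and 55.7 TPM in SMCs, or 0.73 ± 0.082. Parp12 and Dtx3l lay between, at 2.83 ± 0.14 and 2.62 ± 0.17 in PDGFR-β+ cells and 0.55 ± 0.078 and 0.51 ± 0.098 in SMCs. Parp9 and Dtx3l overlap on opposite strands of chromosome 16, so their values share an uncertainty.

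Among the TRIM, nuclear body and other effectors, Ifi44, a cytoplasmic protein of microtubule-associated aggregates, had the largest log2 fold change in SMCs of all members tested and the second largest in PDGFR-β+ cells. It was at 4.75, 2.79 and 8.8 TPM and 247, 262 and 245 TPM in PDGFR-β+ cells, or 5.40 ± 0.30, and at 10.4, 17.1 and 19.5 TPM and 97.2, 77.2 and 86.4 TPM in SMCs, or 2.44 ± 0.22. Phf11d, a PHD finger protein, was at 8.97, 5.74 and 14.0 TPM and 275, 314 and 272 TPM in PDGFR-β+ cells but only 29.8, 31.3 and 35.4 TPM and 77.7, 67.2 and 65.9 TPM in SMCs. Its log2 fold changes, 4.84 ± 0.26 and 1.10 ± 0.098, put it 9th of 43 in the first order and in a tie for 14th of the 41 tested in the second.

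Ifi35, whose product joins NMI, and Epsti1 shared the smallest value of this group in PDGFR-β+ cells by different routes. Ifi35 was at 27.8, 20.7 and 27.7 TPM under Scr and 141, 139 and 143 TPM after siKlf4 there, or 2.44 ± 0.12, and at 38.9, 40.2 and 42.5 TPM and 62.1, 54.6 and 60.8 TPM in SMCs, or 0.53 ± 0.079. Epsti1 was listed at 0, 0 and 0.0576 TPM under Scr and 4.4, 4.79 and 4.45 TPM after siKlf4 in PDGFR-β+ cells, or 2.44 ± 0.14 on log2(TPM + 1), a scale that understates changes of low genes. In SMCs Epsti1 was at 0.206, 0 and 0.15 TPM and 0.161, 0.122 and 0.21 TPM, with overlapping groups.

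The antibody receptor Trim21, the Toll-like receptor regulator Trim30a, the nuclear body protein Sp100 and the XIAP-associated factor Xaf1 were higher in every siKlf4 library of both cell types. Their log2 fold changes in PDGFR-β+ cells were 2.72 ± 0.19, 3.75 ± 0.19, 2.83 ± 0.16 and 3.46 ± 0.29. In SMCs they were 0.41 ± 0.091, 0.97 ± 0.11, 0.74 ± 0.08 and 1.22 ± 0.17. Trim30a shares 4.41% of its windows with other genes, most with Trim30d, and Phf11d 3.78%, most with Phf11c.

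The Schlafen genes regulate growth and bind RNA in immune and mesenchymal cells. Slfn5 was at 0.89, 0.738 and 1.35 TPM in Scr PDGFR-β+ cells and 29.9, 20.5 and 17.1 TPM in Scr SMCs, 22.6 times as high on mean TPM. With siKlf4 it was at 7.6, 6.6 and 5.1 TPM in PDGFR-β+ cells and 13.4, 10.7 and 13.3 TPM in SMCs, so that it was higher in every siKlf4 library of the first (1.90 ± 0.18) and lower in every one of the second (-0.77 ± 0.20). The Scr SMC library with no number was highest, and without it the SMC value was -0.56. Slfn5 overlaps Slfn5os on the opposite strand. Slfn2 was higher in both, from 8.93, 5.64 and 11.8 TPM to 80.4, 75.5 and 70.5 TPM in PDGFR-β+ cells and from 41.3, 55.3 and 56.3 TPM to 101, 114 and 115 TPM in SMCs, and stayed above the PDGFR-β+ level in SMCs under both treatments.

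**Figure D3:**
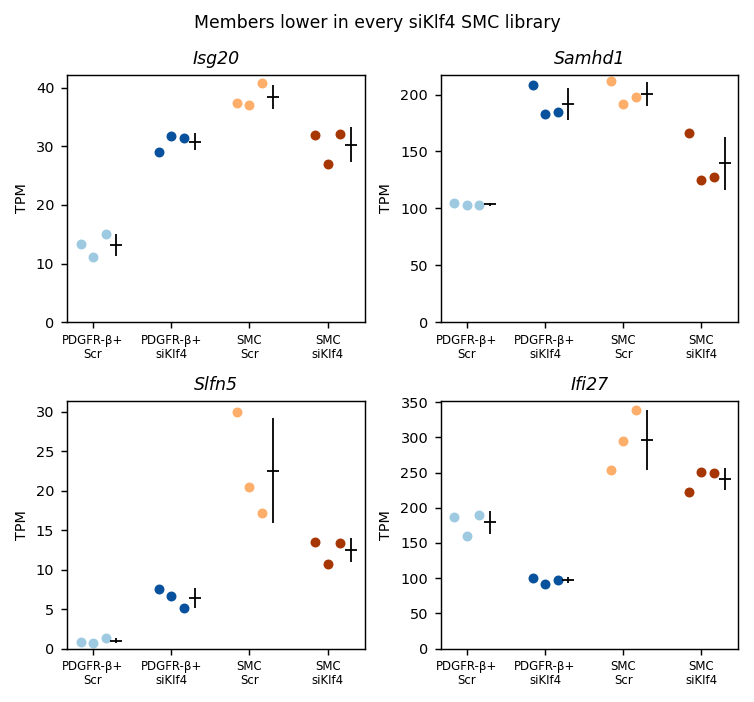
TPM of the 4 members that were lower in every siKlf4 SMC library than in any Scr SMC library; dots are the 3 libraries of a group and the bar beside them is the mean with its SD. Isg20, Samhd1 and Slfn5 are higher with siKlf4 in PDGFR-β+ cells (blue) and lower in SMCs (orange and brown), while Ifi27 is lower in both.

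Cxcl10 and Ccl5 encode chemokines that draw lymphocytes. Cxcl10 was at 2.28, 3.14 and 4.76 TPM under Scr and 143, 128 and 144 TPM after siKlf4 in PDGFR-β+ cells, or 5.02 ± 0.19. Cxcl10 stayed low in SMCs, at 0.53, 0.799 and 1.63 TPM and 3.43, 5.19 and 6.01 TPM, or 1.58 ± 0.26. Ccl5 was at 2.36, 1.18 and 1.82 TPM and 101, 107 and 92.9 TPM in PDGFR-β+ cells, or 5.21 ± 0.16, and at 1.51, 1.81 and 0.335 TPM and 2.87, 3.61 and 2.25 TPM in SMCs, or 0.87 ± 0.30. Both were at 92.9 TPM or more in every siKlf4 PDGFR-β+ library and at 6.01 TPM or less in every SMC library. Ccl5 differed between the cell types by 4.33 ± 0.36, within its error of Cmpk2, and was 3rd of 43 in the order of PDGFR-β+ cells and 21st of 41 in that of SMCs. Its SMC value was 0.54 without Scr replicate 3.

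Between cell types, 40 of the 41 members tested in both had the larger log2 fold change in PDGFR-β+ cells, the exception being Ifi27. The difference of the log2 fold changes, PDGFR-β+ minus SMC, ran from −0.59 for Ifi27 to 4.33 for Ccl5 with a median of 2.12, against 0.08 over the 13032 genes tested. In the interaction fit 38 members were called higher in PDGFR-β+ cells, 1 lower and 2, Trim25 and Ube2l6, neither, beside 18.5% and 14.5% of all genes; these counts too come from the contrasts that chose the members. The order of the members was alike in both cell types, with a Spearman correlation of 0.854 across the 41 genes, which are not independent and share libraries within a cell type. Of the 10 members with the largest change in each cell type, 6 were in both lists. Ifit3 moved up from 17th in PDGFR-β+ cells to 4th in SMCs, Cmpk2 and Ccl5 moved down.

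The Scr levels of the cell types, which come from separately processed tables and were not tested, differed in the other direction. In 25 members every Scr SMC library lay above every Scr PDGFR-β+ library, in 3 (Ifit3, Ifit3b and Cxcl10) every one lay below, and 15 overlapped. Over the 14417 genes at 1 TPM or more in either Scr group, 30.7% lay above and 28.2% below. The ratio of mean Scr TPM, SMC over PDGFR-β+, was 22.6 for Slfn5, 5.79 for Slfn2, 5.17 for Ddx60, 3.77 for Zbp1 and 3.37 for Phf11d, while that of Epsti1, 6.16, rests on levels near 0. In the siKlf4 libraries 36 members were lower in every SMC library than in any PDGFR-β+ library, 3 were higher (Slfn2, Slfn5 and Ifi27) and 4 overlapped, beside 34.8% lower and 26.5% higher of the 14429 genes at 1 TPM or more in either siKlf4 group. The members' order by level correlated at 0.848 (Spearman, 43 genes) between the cell types with Scr and 0.776 with siKlf4. Cell type, source of the cells, culture and table cannot be told apart in this comparison.

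**Figure D4:**
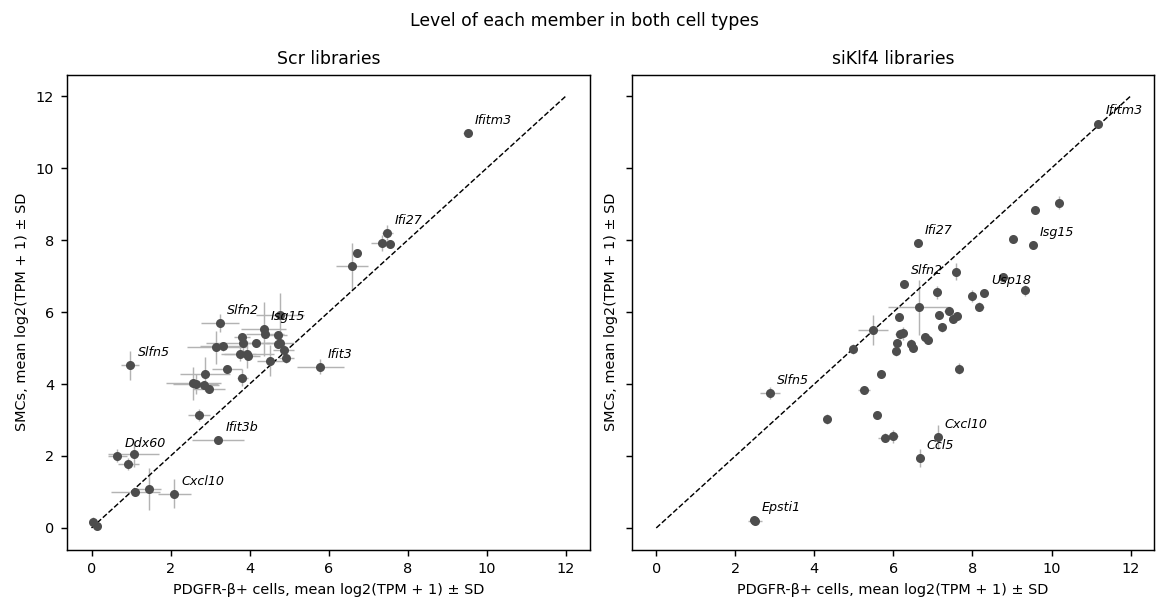
Mean log2(TPM + 1) of each member with its SD over 3 libraries, in PDGFR-β+ cells (x axis) against SMCs (y axis), for the Scr (left) and siKlf4 libraries (right); the dashed line marks equal levels. Most points lie above the line on the left and below it on the right, where Slfn2, Slfn5 and Ifi27 stay above.

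The genes that feed this response are not members and were tested by limma over all genes. The lists of the pathway were chosen with earlier results of these data known, so their calls are no independent support. Of 20 interferon genes, Ifnb1, the first type I interferon that most cells make, was the only one that passed 1 TPM in any group. It was listed at 0 in all Scr libraries and in all SMC libraries and at 5.19, 3.71 and 3.16 TPM in the siKlf4 PDGFR-β+ cells, where it was called higher (adjusted p = 0.000109). It passed the filter through that group alone, and no fold change is given against a group at 0. Ifna4 showed the same pattern below the filter, at 1.09, 0.526 and 0.899 TPM in siKlf4 PDGFR-β+ cells and listed at 0 elsewhere. Ifng, which encodes type II interferon, and the lambda genes Ifnl2 and Ifnl3 were listed at 0 in all 12 libraries. No ligand passed the filter in SMCs, and whether a ligand acts there was not tested. A listing at 0 cannot exclude a level too low for these libraries, whose depth is unknown.

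Of the 8 receptors and JAK kinases tested, 6 did not pass the test in either cell type. Ifnar1 was at 51.9, 47.9 and 49.1 TPM under Scr and 45.1, 43.8 and 43.5 TPM after siKlf4 in PDGFR-β+ cells (log2 fold change -0.16 ± 0.068, adjusted p = 0.0925) and at 75.2, 72.9 and 69.5 TPM and 89.4, 83.6 and 80.9 TPM in SMCs (0.22 ± 0.07, adjusted p = 0.0538), a value called higher with a minimum of 5 TPM, with a term for the libraries with no number and with all 12 libraries in a single fit. The difference between the cell types passed the interaction test (-0.38 ± 0.089, adjusted p = 0.00684). Ifnar2 had -0.22 ± 0.10 (adjusted p = 0.118) and -0.08 ± 0.087 (adjusted p = 0.513). Jak2 rose and Ifngr2 fell in PDGFR-β+ cells and both rose in SMCs. Under median-ratio scaling, which moves the median of all genes in PDGFR-β+ cells by −0.10, Ifnar1 and Ifnar2 were also called lower there.

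Stat2, Irf9 and Irf7, which act downstream of the receptors, rose in both cell types, whereas Irf1, Irf2 and Irf5 rose in PDGFR-β+ cells and did not pass the test in SMCs. Stat2, the partner of IRF9, was at 37.2, 37.0 and 47.5 TPM under Scr and 206, 221 and 203 TPM after siKlf4 in PDGFR-β+ cells (2.35 ± 0.11, adjusted p = 1.06e-05) and at 83.1, 79.8 and 92.8 TPM and 156, 125 and 115 TPM in SMCs (0.61 ± 0.12, adjusted p = 0.0117). Irf9 had 1.43 ± 0.16 (adjusted p = 0.000514) and 0.48 ± 0.065 (adjusted p = 0.00315). Irf8 had -0.50 ± 0.15 in SMCs (adjusted p = 0.0476), a call lost in 11 of 15 alternatives, among them leaving out any one library, and was too low to be tested in PDGFR-β+ cells. Stat2 and Irf9 rose more in PDGFR-β+ cells by the interaction term, with adjusted p = 3.34e-05 and 0.00268.

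Irf7, a factor that is itself a target of the response, had a change of the size of the leading members. It was at 4.87, 5.08 and 8.99 TPM and 293, 232 and 221 TPM in PDGFR-β+ cells, a log2 fold change of 5.13 ± 0.21 (adjusted p = 8.46e-06). In SMCs it was at 7.94, 25.7 and 28.9 TPM and 60.6, 71.5 and 85.6 TPM, or 1.92 ± 0.43 (adjusted p = 0.0176), a call that was lost without siKlf4 replicate 2 (1.92) or replicate 3 (1.79) and without a filter on low values. Its Scr SMC library with no number was low, as it was for Isg15 and Bst2. Irf1, which also answers to type II interferon, rose in PDGFR-β+ cells (1.24 ± 0.24, adjusted p = 0.00586) and had -0.33 ± 0.21 in SMCs (adjusted p = 0.271), and the difference passed the test (adjusted p = 0.00563). Irf3 did not pass it in either cell type, although the difference did (0.32 ± 0.11, adjusted p = 0.0414).

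**Figure D5:**
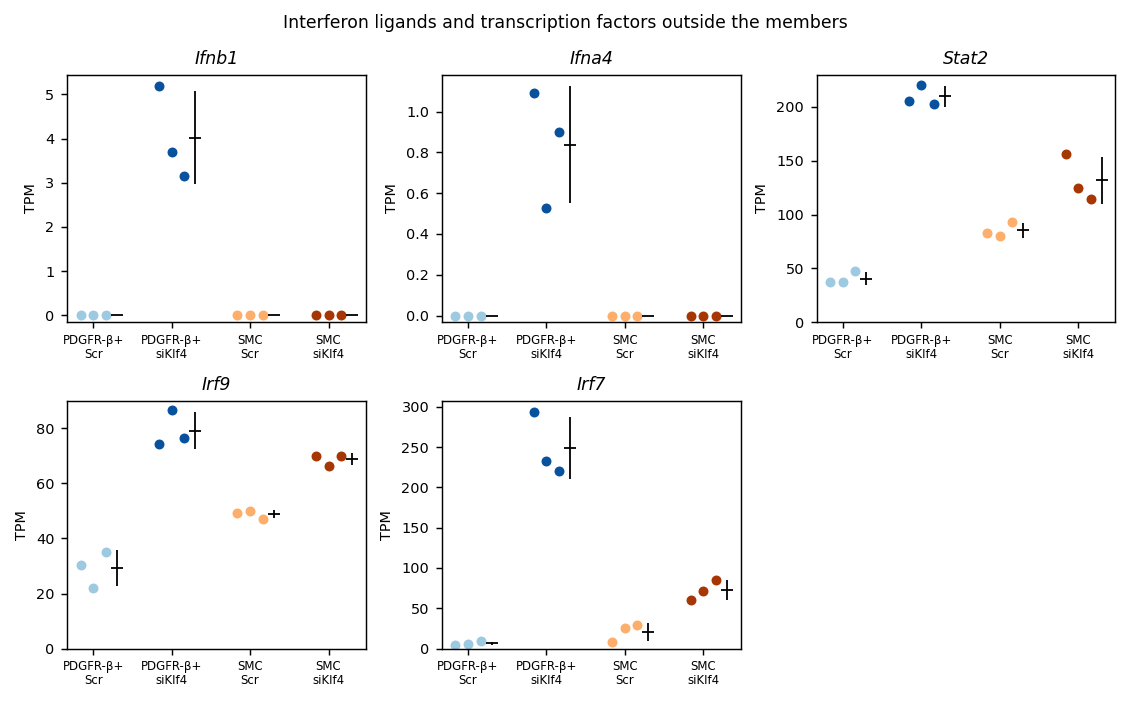
TPM of 2 interferon ligands and 3 transcription factors outside the 43 members; dots are the 3 libraries of a group and the bar beside them is the mean with its SD. Ifnb1 and Ifna4 are above 0 only in the siKlf4 PDGFR-β+ libraries, while Stat2, Irf9 and Irf7 are higher with siKlf4 in both cell types.

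Other genes of the response were counted by list, beside 25.3% of all genes tested that rose and 15.3% that fell in PDGFR-β+ cells and 15.6% and 12.9% in SMCs. In PDGFR-β+ cells all 14 interferon-inducible GTPases and 8 of 9 OAS and RNase L genes rose, with median log2 fold changes of 3.02 and 3.55, and in SMCs 10 of 13 and 6 of 9 rose, with medians of 0.86 and 1.45. Of these, 4 GTPases and 3 OAS genes in PDGFR-β+ cells and 1 OAS gene in SMCs had a Scr mean under 1 TPM and passed the filter only through the siKlf4 group. Of the 13 sensing genes tested, 9 rose and 1, Mavs, fell in PDGFR-β+ cells, while in SMCs 5 rose and 1, Ikbke, fell. The call of Mavs was lost in 5 of 14 alternatives, namely without a filter on low values and without Scr replicate 1 or 2 or siKlf4 replicate 2 or 3. Mb21d1, among the 5 that rose in SMCs, lost its call there in 7 of 15 alternatives. Ifih1 (MDA5) had 3.49 ± 0.21 and 1.07 ± 0.093 (adjusted p = 3.4e-05 and 0.000997). Iigp1, a GTPase that attacks vacuoles of parasites, had the largest value of the GTPase list in PDGFR-β+ cells, at 4.89 ± 0.37 (adjusted p = 8.61e-05). Of 8 feedback inhibitors tested 5 rose in PDGFR-β+ cells, among them Socs1 (1.41 ± 0.18, adjusted p = 0.000898), and in SMCs 1 rose and Socs3 fell (-0.79 ± 0.065, adjusted p = 0.000904). Among the 5, Pias1 lost its call in 9 of 14 alternatives, among them leaving out any one library but Scr replicate 1, and Irf2bp2 in 6, among them leaving out Scr replicate 1 or any siKlf4 library.

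Genes that lean on other signals were counted as well. Of the 10 genes that answer mostly to interferon gamma only 3 passed the filter in PDGFR-β+ cells. Cxcl9 rose there from 0, 0.0672 and 0.112 TPM to 19.1, 20.7 and 21.2 TPM, but passed the filter only through the siKlf4 group. Cd274 rose as well, while Ciita and Nos2 stayed at or near 0 TPM in these cells. Cd274 was also called higher in SMCs, a call lost in 6 of 15 alternatives. In SMCs H2-Ab1, an MHC class II gene, rose from 1.51, 2.71 and 2.07 TPM to 5.15, 9.45 and 9.33 TPM (1.51 ± 0.25, adjusted p = 0.00595), and it had -0.29 ± 0.16 in PDGFR-β+ cells (adjusted p = 0.189). Of 9 NF-kB targets tested in PDGFR-β+ cells 2 rose and Icam1 fell (-1.25 ± 0.12, adjusted p = 0.000268), and of 12 in SMCs 3 rose, Icam1 among them (0.36 ± 0.071, adjusted p = 0.011). Of these targets, 1 in PDGFR-β+ cells and 2 in SMCs passed the filter only through the siKlf4 group. The calls of the other risers were less firm: in SMCs Tnfaip3 lost its call in 5 of 16 alternatives and Cxcl2 in 6 of 15. In PDGFR-β+ cells Cxcl1 lost its call without siKlf4 replicate 2, while Tnfaip3 kept it. The median log2 fold change of the NF-kB list was 0.08 in PDGFR-β+ cells and 0.10 in SMCs, against 0.10 and 0.02 over all genes tested.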

How the data were processed

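RNA of 12 cultures was poly-A selected and sequenced as a strand-specific library. Per the labels and the methods, the authors aligned reads with HISAT2 to mm10 and computed the deposited TPM values with StringTie on GENCODE genes (release not given in the sources used here); their DESeq2 results were not used. TPM keeps no depth, so depth per library is unknown and no counting error can be given.

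Genes whose TPM averaged 1 or more across the 6 libraries of a given cell type (both types for the interaction) were tested on log2(TPM + 1) with limma (version 3.58.1, R 4.3.3) with a trended prior, in 1 fit per cell type (3 against 3 libraries), and in a fit of both for the difference of effects (interaction), with Benjamini-Hochberg adjustment over all genes tested. An exact permutation test of 3 against 3 libraries cannot give a two-sided p under 0.1 and was not used. The scripts were tested on simulated data: 86 of 100 genes with a log2 fold change of 1 were recovered in PDGFR-β+ cells, 85 of 99 in SMCs and 75 of 99 in the interaction fit. The changed genes were drawn from those with a mean of 3 TPM or more in PDGFR-β+ cells, and noise was independent between genes. The real tests go down to 1 TPM, so these rates may overstate recovery here. One Scr and one siKlf4 column of the SMC table carry no replicate number and were placed by their group. Same-numbered libraries did not deviate together in PDGFR-β+ cells (Pearson r 0.0732, −0.0158 and 0.0043 over genes).

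The 43 members and the pathway lists were chosen with earlier results of these data known. All members are named; library values are given for the largest and smallest log2 fold change of each role group and for members that differ in direction, and Isg15, Ube2l6, Ifit3, Ifit3b, Mx1, Mx2, Cmpk2, Ifitm3, Ifi27, Lgals9 and Phf11d were added after their values were seen. Sequences and windows are from RefSeq, gene positions and shared transcript windows from GENCODE vM21. Alternatives were another pseudocount, filter, scaling, prior or block, and leaving out each library.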

Additional observations from a re-analysis of the deposited data

Results flagged for a closer look

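Isg20, Samhd1 and Slfn5 moved in opposite directions in the 2 cell types, each higher in all siKlf4 libraries of PDGFR-β+ cells and lower in all siKlf4 libraries of SMCs. The difference of the log2 fold changes, PDGFR-β+ minus SMC, was 1.51 ± 0.15 (SE) for Isg20, 1.41 ± 0.14 for Samhd1 and 2.67 ± 0.28 for Slfn5. The interaction term called the effect higher in PDGFR-β+ cells for all 3, but the members were chosen on the same contrasts, so nothing is read from these calls.

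Outside the members, the interaction term of limma showed a larger effect in PDGFR-β+ cells for 44 of the 70 pathway genes tested and a smaller one for 5, beside 18.5% and 14.5% of all genes. No group has more than 3 libraries, so single libraries were not tested for standing apart.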

How the results depend on the processing

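No member called in either direction changed sign under any alternative run. In PDGFR-β+ cells the call of Trim25 was lost without siKlf4 replicate 2, and with a minimum mean of 5 TPM 39 members were called higher in place of 42, since Mx1, Epsti1 and Slfn5 were not tested. Median-ratio scaling moved the median of all genes from 0.097 to −0.004 in PDGFR-β+ cells and the share of higher calls from 62.3% to 46.9% (49.7% with quantile normalization), while the members' median went from 2.83 to 2.72; for the difference between cell types it moved that share from 56.1% to 45.3%. Under either scaling 6 in place of 3 pathway genes were called lower in PDGFR-β+ cells, among them Ifnar1, Ifnar2 and Socs3. In SMCs the count of members called lower, 3 as reported, was 1 without a filter on low values and ran from 0 to 3 when single libraries were left out: Samhd1 lost its call without siKlf4 replicate 2 or 3, Slfn5 without 4 of the 6 libraries and Isg20 without any one of them, though the log2 fold changes stayed below 0. A term for the unnumbered SMC libraries called 5 pathway genes lower in place of 3. The members' Scr libraries lower in SMCs, 3 in all, ran from 3 to 5, with 5 without PDGFR-β+ Scr replicate 2. The members' median ran from 2.66 to 2.95 in PDGFR-β+ cells and from 0.77 to 0.96 in SMCs when single libraries were left out, and from 2.66 to 3.15 and from 0.74 to 0.96 over all alternatives.

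A fit with the replicate number as a block called 42 members higher and 1 lower in PDGFR-β+ cells, beside 3486 and 2155 of all 13694 genes tested. Over the 4 numbered SMC libraries it called 28 members higher and 3 lower, beside 1500 and 1353 of 13743 genes. The call of Stat2 was lost there. The replicate numbers share no stated origin. In the numbered SMC pairs the correlation of deviations was 0.107. This is a single value, since deviations of the numbered libraries mirror each other within a group and both pairs must give it. The fit on the 4 numbered SMC libraries without a block was chosen after seeing the data. It called 32 members higher and 3 lower, beside 2140 and 1825 of 13743 genes. Library depth is unknown, so values near 0, as for Mx1, Epsti1 and the ligands, carry no counting error.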
